A study of Danio rerio with 6 samples.

Results

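Claudins, occludins, cadherins, desmosome proteins and transglutaminases build the junctions and the cross-linked surface of an epithelium. Here 88 such genes were described in regenerating zebrafish (Danio rerio) caudal fins, out of 28531 distinct gene names in the deposited count table. Members were chosen by symbol: names that begin with cldn, tjp, pkp, dsc, cdh or tgm and the genes dspa, epcam, perp, jupa, jupb, oclna and oclnb, with cdh5, a vessel cadherin, left out. By role they are 29 claudins, 7 tight junction scaffolds and occludins, epcam, 11 desmosome genes, 13 classical cadherins, 11 other cadherins and 10 transglutaminases. The remaining 6 match the spelling and are no junction genes by name or are only claudin-related: dscama, dscamb, dscaml1, dscc1, cldnd1a and cldnd1b.

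The study compared 3 BMS libraries (replicates 2, 3 and 4) with 3 vehicle libraries (replicates 2, 3 and 4). BMS fish were injected into the body cavity with 40 mg/kg BMS-833923, a compound that blocks Smoothened, which relays the Hedgehog signal across the cell membrane. Vehicle fish received the same buffer (PEG-400, propylene glycol and Tween-80) without the compound. All fish carried the shha:GFP transgene, were at 4 days after fin amputation and were sampled 5 hours after the injection. Each library pooled the distal part of 4 regenerates, with the shha:GFP domains included. For BMS replicates 3 and 4 the label of the compound ends in different digits. Since the design text knows BMS-833923 and no other compound, all 3 were treated as 1 group. The stated purpose was to find transcripts downstream of Sonic hedgehog, and the injection was given to the whole animal, with no cell type targeted.

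Tight junctions seal the space between neighbouring epithelial cells. Their strands are made of claudins, each with its own permeability, and of occludin, and the zonula occludens proteins (tjp genes) tie them to actin. Adherens junctions hold cells together through classical cadherins, with cdh1 (E-cadherin) typical of epithelia and cdh2 (N-cadherin) of mesenchyme and nerve. Desmosomes anchor keratin filaments through desmocollins, plakoglobin, plakophilins and desmoplakin. Transglutaminases cross-link proteins, and in mammals some of them build the cornified envelope of the skin. Fish epidermis stays alive at its surface, and in the regenerating fin it covers the blastema in several layers.

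Total counts ran from 16978747 (BMS replicate 2) to 22659275 (BMS replicate 4). Values below are CPM, the usual depth-scaled counts, computed on library sizes scaled by TMM, edgeR's factor per library. The BMS replicate 2 library stood apart: its TMM factor was 0.78, against 0.95 to 1.12 in the other 5 libraries. Its summed superficial epidermis markers were at 31970 CPM, against 14890 to 22170 CPM in the others. The keratin genes krt91 (14940 CPM) and krt4 (6923 CPM) gave most of this sum. Most of the listed markers were highest in this library, but evpla was lowest there, at 361 CPM, against 408 to 929 CPM in the others. The Hedgehog target gli1 was at 14.7, 25.2 and 16.8 CPM in BMS replicates 2, 3 and 4 and at 37.5, 40.9 and 27.5 CPM in vehicle replicates 2, 3 and 4, with no overlap. The Hedgehog binding protein gene hhip did not overlap either, at 1.97, 3.99 and 4.16 CPM in BMS and 15.1, 13.1 and 9.40 CPM in vehicle, and the receptor gene ptch1 was at 12.9, 25.5 and 12.6 CPM in BMS and 31.7, 35.6 and 22.6 CPM in vehicle. The adjusted p of each was 1 by the main test, edgeR's quasi-likelihood test without a block. Called lower in BMS were hhip by DESeq2 without a block (adjusted p = 0.0256), and hhip and gli1 by DESeq2 with the replicate number as a block (adjusted p = 0.000112 and 0.0245). With that block, the likelihood ratio test called hhip, gli1 and ptch1 (adjusted p = 5.19e-05, 0.00898 and 0.0278), and the DESeq2 value for ptch1 was 0.0542. No member was called by the main test. Called means an adjusted p under 0.05, with Benjamini-Hochberg adjustment over all rows tested.

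Of the 88 members, 65 passed the filter on low counts and were tested. The edgeR quasi-likelihood test called 0 of these 65, as it called 0 of 18541 rows (percent called 0). An unadjusted p under 0.05 was reached by 0 of 65 members and by 198 of all rows (1.07%, or 0.663% higher and 0.405% lower). DESeq2 without a block called 0 members and 1 row (0.00539%), the likelihood ratio test 0 members and 1 row (0.00539%), and limma-voom 0 members and 0 rows. Across genes, BMS and vehicle libraries that share a number deviated in the same direction, so a fit with the number as a block was made beside each. With the block, edgeR's quasi-likelihood test again called 0 members and 0 rows, and an unadjusted p under 0.05 was reached by 6 members, 4 higher and 2 lower in BMS (by this rule 7.05% of all rows, 3.09% higher and 3.96% lower). DESeq2 with the block called 2 members, both higher, where it called 0.388% of all rows, 0.275% higher and 0.113% lower. These 2 were the transglutaminase gene tgm5l and the plakophilin gene pkp2. Among the members, the blocked likelihood ratio test called tgm5l alone (0.593% of all rows, 0.394% higher and 0.2% lower).

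The gene tgm5l, named after transglutaminase 5, an epidermal enzyme in humans, had the smallest p of the members with the block. It was at 169.6, 84.4 and 51.2 CPM in BMS replicates 2, 3 and 4, and at 96.0, 42.8 and 22.3 CPM in vehicle replicates 2, 3 and 4. The 2 groups overlapped, since replicate 2 was the highest and replicate 4 the lowest library of each group, and within each number the BMS library was higher. The differences within the pairs were 0.82, 0.97 and 1.18 on the log2(CPM + 0.5) scale for replicates 2, 3 and 4. DESeq2 with the block gave a log2 fold change of 0.99 ± 0.20 (SE, adjusted p = 0.000664), and the likelihood ratio test with the block an adjusted p of 0.000142. In edgeR's quasi-likelihood fits the values were 0.997 ± 0.16 with the block (adjusted p = 0.316) and 0.92 ± 0.56 without it (adjusted p = 1), or 0.33 without BMS replicate 2 and no block. Without both libraries of number 4, the DESeq2 value was 0.91 and was not called (adjusted p = 1). It was 1.09 without both of number 2 (adjusted p = 0.000162) and 0.98 without both of number 3 (adjusted p = 0.0483).

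The plakophilin gene pkp2 encodes a desmosomal plaque protein, best known from heart and simple epithelia in mammals. Its level was 243, 193 and 105 CPM in BMS replicates 2, 3 and 4, against 189, 107 and 26.9 CPM in vehicle replicates 2, 3 and 4. The BMS library was higher within each number, by 0.37, 0.85 and 1.94 on the log2(CPM + 0.5) scale, and vehicle replicate 4 was the lowest of the 6 libraries. The DESeq2 log2 fold change with the block was 1.05 ± 0.27 (adjusted p = 0.0261). The quasi-likelihood value by edgeR was 1.05 ± 0.28 with the block (adjusted p = 0.56) and 0.75 ± 0.59 without it (adjusted p = 1), or 0.29 without vehicle replicate 4 and no block. DESeq2 with the block called pkp2 without both libraries of number 2 (1.41, adjusted p = 0.000122), but not without both of number 3 (1.14, adjusted p = 0.637) or of number 4 (0.62, adjusted p = 1).

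**Figure D1:**
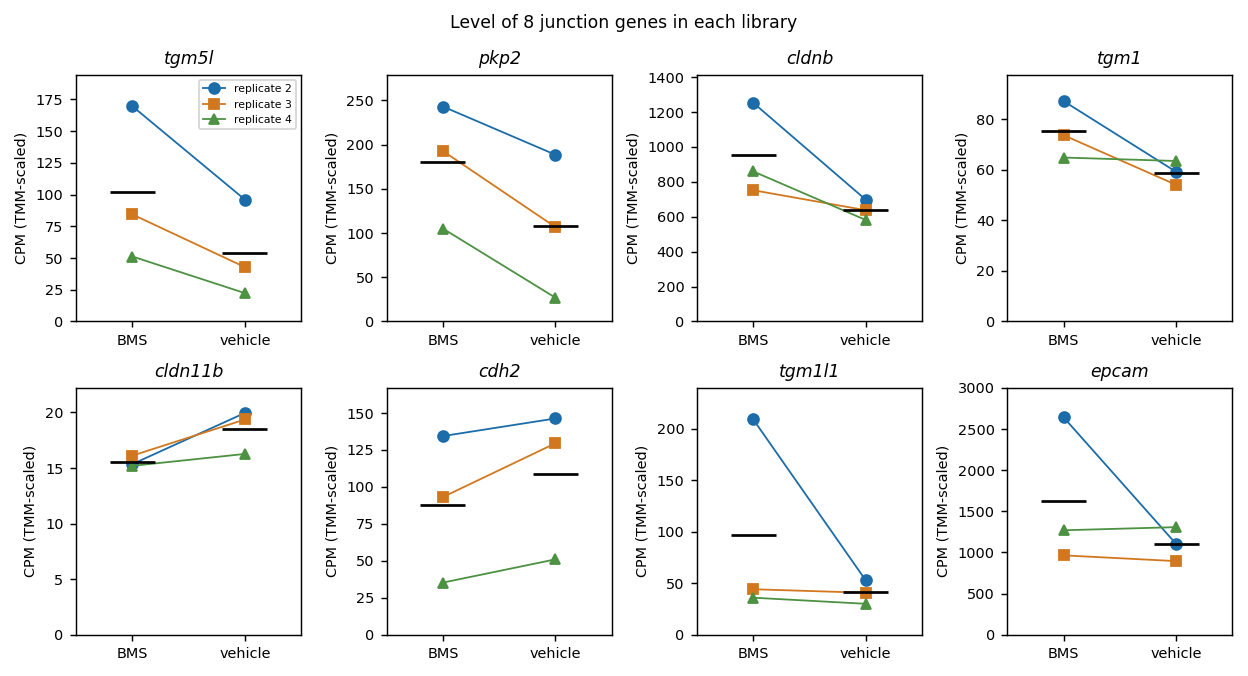
Level of 8 members in each library, in CPM on a linear axis from 0, with BMS left of vehicle. Lines join libraries of the same replicate number and black bars are group means. For tgm5l and pkp2 the BMS library is above the vehicle library in each of the 3 numbers, while for tgm1l1 and epcam the BMS replicate 2 library, at 209 and 2641 CPM, lies far above the other 5.

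Among the 29 claudins, 17 passed the filter. Log2 fold changes (BMS over vehicle, edgeR without the block) were above 0 in 11 and below 0 in 6, with a median of 0.14, against 0.01 over all rows tested. None was called. The clearest separation was that of cldnb, an epidermal claudin of zebrafish. It was at 1253, 752 and 859.7 CPM in BMS replicates 2, 3 and 4, against 698, 638 and 582 CPM in vehicle replicates 2, 3 and 4. Every BMS library was above every vehicle library. The log2 fold change was 0.58 ± 0.32 without the block and 0.55 ± 0.20 with it (95% interval 0.09 to 1.01, edgeR adjusted p = 0.68). Without BMS replicate 2 and no block it was 0.35.

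Of the other claudins with high counts, cldn7b, whose mammalian counterpart is a claudin of many epithelia, was higher within all 3 pairs, by 0.32, 0.33 and 0.13 on the log2(CPM + 0.5) scale. Its CPM was 358, 411 and 447 in BMS replicates 2, 3 and 4 and 286, 327 and 407 in vehicle replicates 2, 3 and 4, so the groups overlapped. For cldni the values were 609, 628 and 805 CPM in BMS and 569, 523 and 756 CPM in vehicle, in the same order of replicates. The groups overlapped here too, and cldni was higher in BMS within each pair, by 0.10, 0.26 and 0.09. Its log2 fold change was 0.14 ± 0.30 without the block and 0.15 ± 0.18 with it. With no block it was 0.0037 without BMS replicate 4 and 0.32 without vehicle replicate 4. A nearly even pattern was seen for cldna, at 454 ± 63.8 CPM in BMS and 436 ± 124 CPM in vehicle (mean ± SD, n = 3 each).

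The claudin gene cldn1, whose loss breaks the skin barrier in mice, was at 66.0, 17.6 and 21.98 CPM in BMS replicates 2, 3 and 4 and at 29.4, 21.4 and 18.45 CPM in vehicle replicates 2, 3 and 4. The high mean in BMS came from replicate 2, and without that library and no block the log2 fold change was -0.20, against 0.61 with it. In the blocked fit without both libraries of number 2 it was 0.009. Claudin 5 is the main claudin of blood vessels in mammals, and its zebrafish gene cldn5b was at 24.9 ± 7.64 CPM in BMS and 17.7 ± 1.84 CPM in vehicle (mean ± SD, n = 3 each). Within pair 3 cldn5b was slightly lower in BMS (-0.03), and within pairs 2 and 4 it was higher by 0.67 in each. At the low end, cldn7a was at 1.21, 0.33 and 0.81 CPM in BMS replicates 2, 3 and 4 and at 0.54, 0.25 and 0.32 CPM in vehicle replicates 2, 3 and 4. These are low counts, 6 to 20 reads per library. They lie above the level a count of 0 allows, 0.119 to 0.227 CPM per library (3 counts, counting error only).

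In the other direction, cldn11b was lower in every BMS library than in any vehicle library. Claudin 11 is known from myelin and testis in mammals. Its CPM was 15.4, 16.1 and 15.2 in BMS replicates 2, 3 and 4, against 19.96, 19.4 and 16.3 in vehicle replicates 2, 3 and 4. The log2 fold change was -0.25 ± 0.26 (edgeR adjusted p = 1), and the gap between BMS replicate 3 and vehicle replicate 4 was small. Of the 65 tested members, groups did not overlap in 2 that were higher in BMS (cldnb and tgm1) and in 1 that was lower (cldn11b). Over all rows tested the groups did not overlap in 3.92%, with 2.16% higher and 1.76% lower.

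Of the scaffolds and occludins, all 7 passed the filter and none was called, with 5 values above 0 and 2 below. The 2 below 0 were tjp1a and tjp1b, at log2 fold changes of -0.20 ± 0.34 and -0.02 ± 0.32. In BMS tjp1a was lower within each pair, by -0.37, -0.11 and -0.08. The zonula occludens gene tjp2b was at 86.1, 45.5 and 42.8 CPM in BMS replicates 2, 3 and 4, against 48.4, 39.9 and 37.8 CPM in vehicle replicates 2, 3 and 4. It was higher within each pair, mostly in pair 2 (0.82, 0.19 and 0.18 on the log2(CPM + 0.5) scale). Without BMS replicate 2 and no block its log2 fold change was 0.08, against 0.47 ± 0.33 with all libraries. The blocked fit without both libraries of number 2 gave 0.21 for tjp2b. The occludin gene oclnb was also higher within each pair, by 0.50, 0.15 and 0.15, at 100.4 ± 14.7 CPM in BMS and 82.9 ± 4.77 CPM in vehicle (mean ± SD, n = 3 each). For its paralog oclna, tjp2a and tjp3 the log2 fold changes were 0.13 ± 0.29, 0.07 ± 0.32 and 0.28 ± 0.39. Each was below 0 without BMS replicate 2 and no block (tjp2a also without BMS replicate 3 or vehicle replicate 4). In the blocked fit without both libraries of number 2, oclna, tjp2a and tjp3 were at -0.008, 0.09 and -0.03.

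The gene epcam encodes an adhesion molecule of the epithelial cell surface that binds claudins in mammals. It was at 2641, 965 and 1270 CPM in BMS replicates 2, 3 and 4, against 1103, 895 and 1308 CPM in vehicle replicates 2, 3 and 4. The BMS replicate 2 library alone was high, and the other 5 overlapped. The log2 fold change was 0.56 ± 0.41 with all libraries and 0.04 without BMS replicate 2.

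All 11 desmosome genes passed the filter, 9 with values above 0 and 2 below. The median log2 fold change was 0.14 without the block and 0.08 with it. It was -0.02 without BMS replicate 3 and no block. Beside pkp2, the desmocollin gene dsc2l and the plakophilin genes pkp3a and pkp3b were higher in BMS within each of the 3 pairs. The 2 below 0 were pkp4 (-0.29 ± 0.32) and pkp1a (-0.15 ± 0.41), and pkp4 was lower within each pair (-0.46, -0.12 and -0.26). Plakophilin 3 is the broadly expressed plakophilin of skin in mammals, and pkp3a was at 1311, 1371 and 944 CPM in BMS replicates 2, 3 and 4, against 1094, 867.5 and 813 CPM in vehicle replicates 2, 3 and 4. The groups overlapped through BMS replicate 4. The log2 fold change was 0.39 ± 0.31 without the block and 0.38 ± 0.20 with it (edgeR adjusted p = 0.694). The desmoplakin gene dspa was at 2224 ± 447 CPM in BMS and 2013 ± 214 CPM in vehicle (mean ± SD, n = 3 each). Plakoglobin's gene jupa was at 902.5 ± 109 CPM in BMS and 894 ± 32.95 CPM in vehicle (mean ± SD, n = 3 each), with an interval of -0.42 to 0.43 around its log2 fold change of 0.01 in the blocked fit. The tetraspan gene perp, a p63 target in mouse epidermis, was at 1193, 2248 and 2794 CPM in BMS replicates 2, 3 and 4 and at 1567, 1680 and 2404 CPM in vehicle replicates 2, 3 and 4. In perp, BMS replicate 2 was the lowest of the 6 libraries, opposite to its place for epcam.

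**Figure D2:**
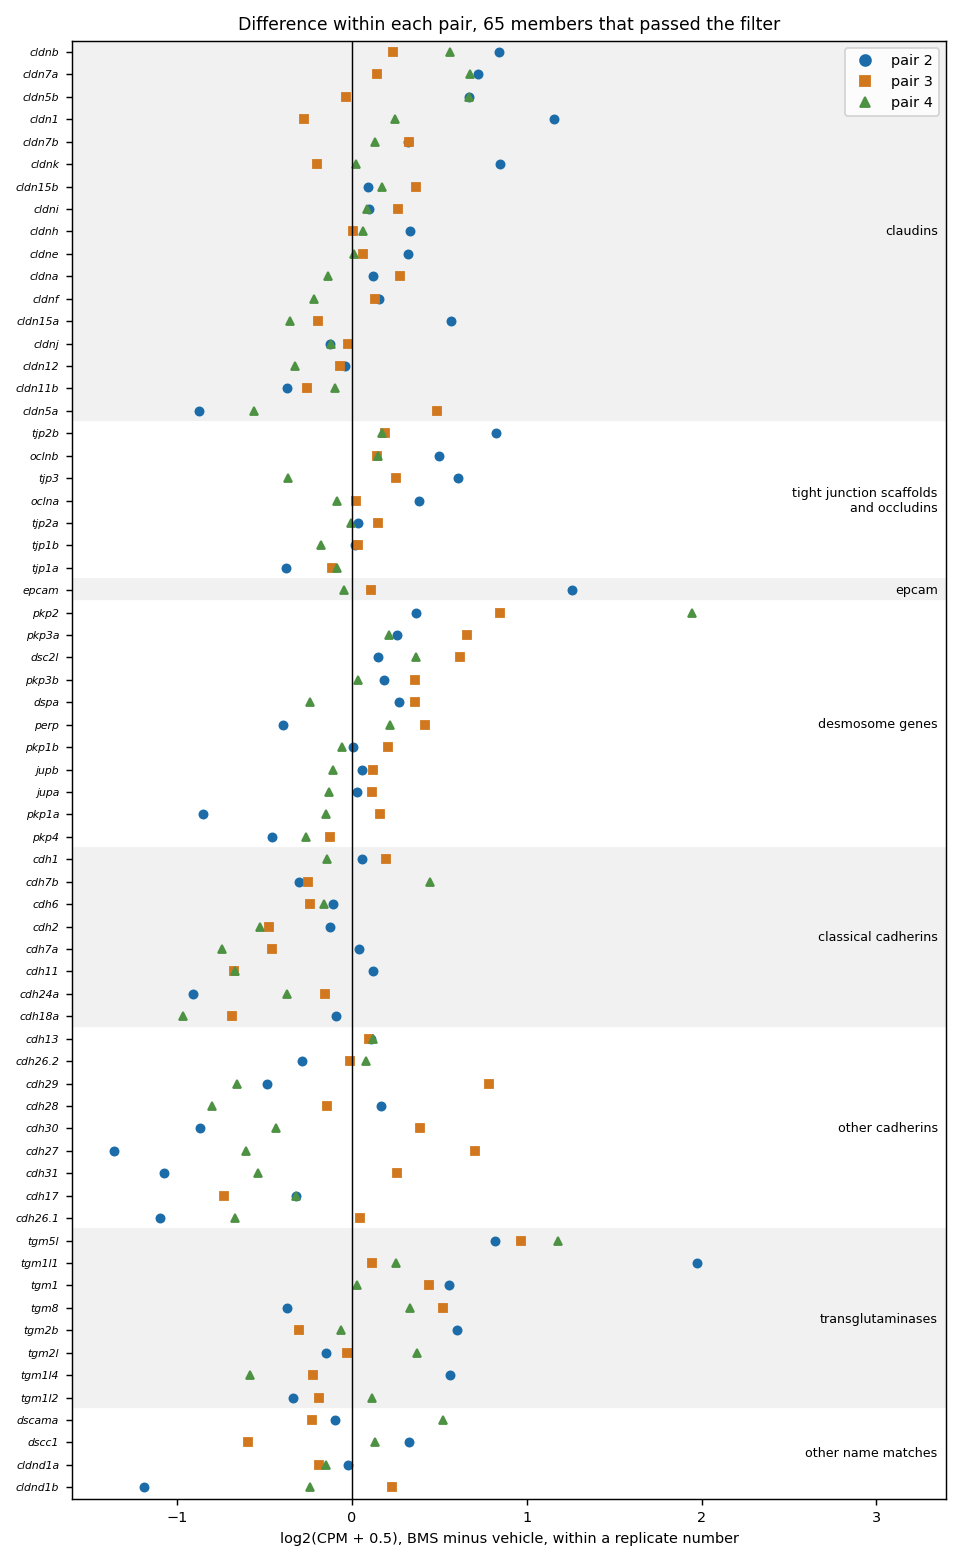
Difference between the BMS and the vehicle library of the same replicate number, on the log2(CPM + 0.5) scale, for the 65 members that passed the filter, grouped by role. Each gene has 3 points, 1 per pair, and points right of 0 are higher in BMS. The 3 points of tgm5l lie between 0.82 and 1.18, while for most members they fall on both sides of 0.

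Among the classical cadherins, 8 of 13 passed the filter, and 7 of these 8 had values below 0, with a median log2 fold change of -0.29. None was called. The member above 0 was cdh1, the epithelial cadherin, at 948, 1101 and 950.2 CPM in BMS replicates 2, 3 and 4 and at 912, 959.8 and 1048 CPM in vehicle replicates 2, 3 and 4. Its log2 fold change was 0.04 ± 0.19 in edgeR's fit with the block, with an interval of -0.40 to 0.47. The mesenchymal cadherin gene cdh2 was lower in BMS within each pair. It was at 134, 93.2 and 35.3 CPM in BMS replicates 2, 3 and 4, against 146, 129.5 and 51.0 CPM in vehicle replicates 2, 3 and 4. The difference within pairs was small beside the spread between replicate numbers, and the log2 fold change was -0.38 ± 0.16 with the block (edgeR adjusted p = 0.687) and -0.32 ± 0.51 without it.

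The osteoblast cadherin gene of mammals, cdh11, was at 61.5, 36.8 and 19.1 CPM in BMS replicates 2, 3 and 4, against 56.4, 59.0 and 30.6 CPM in vehicle replicates 2, 3 and 4. It was lower in BMS within pairs 3 and 4 (-0.67 in each) and higher within pair 2 (0.12). Another cadherin gene, cdh6, was lower within each pair (-0.11, -0.24 and -0.16). For cdh2, cdh11 and cdh6, as for the median of the class (0.03), the sign without the block turned positive when BMS replicate 4 was left out, and for cdh6 also without vehicle replicate 2. For cdh2 and cdh11 the BMS replicate 4 library was the lowest of the 6, as it was for cdh6. The fit without it kept vehicle replicate 4, the lowest vehicle library for each of these genes. That sign change therefore cannot tell the treatment from the difference between replicate numbers. In the blocked fit without both libraries of number 2, cdh2, cdh11 and cdh6 were at -0.48, -0.66 and -0.18. The marker sum of fin mesenchyme, the tissue in which cdh2 and cdh11 are known, was 930, 594 and 704 CPM in BMS replicates 2, 3 and 4 and 728, 686 and 658 CPM in vehicle replicates 2, 3 and 4. It was higher in BMS in pairs 2 and 4. Osteoblast markers summed to 5626, 3738 and 2893 CPM in BMS replicates 2, 3 and 4 and to 4440, 4660 and 3681 CPM in vehicle. This sum was higher in BMS in pair 2 and lower in pairs 3 and 4, as cdh11 was. Most of it was the collagen gene col10a1a, at 5324, 3540 and 2691 CPM in BMS and 4194, 4414 and 3465 CPM in vehicle. Of the 7 tested osteoblast markers, 0 were higher and 2 were lower in BMS in all 3 pairs (14.1% and 17.5% of all rows). These 2 were sp7 (-1.21, -0.15 and -0.43) and runx2b (-1.39, -0.25 and -0.52). The other tested markers, runx2a, col10a1a, spp1, ifitm5 and panx3, differed in sign between pairs. The median log2 fold change of the list was -0.07, with 2 values above 0 and 5 below. The part of either list in the cadherin values was not tested. In such bulk samples, fewer cells of a type and less RNA per cell cannot be told apart.

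Of the 11 other cadherins, 9 passed the filter and 8 of them had values below 0 (median log2 fold change -0.34), again with none called. The gene cdh26.1, whose human counterpart is an epithelial cadherin, was at 55.5, 194 and 76.9 CPM in BMS replicates 2, 3 and 4, against 119, 188 and 122 CPM in vehicle replicates 2, 3 and 4. It was lower within pairs 2 and 4 (-1.10 and -0.67) and hardly different within pair 3 (0.05). The edgeR log2 fold change with the block was -0.57 ± 0.22 (interval -1.08 to -0.07, adjusted p = 0.687), or -0.29 without both libraries of number 2. Without the block it was -0.39, and -1.11 to -0.09 with 1 library left out, the ends without BMS replicate 3 and without BMS replicate 2. The same signs were seen in cdh27, cdh29, cdh30 and cdh31, which were lower in BMS within pairs 2 and 4 and higher within pair 3. As a class the median difference was -0.48, 0.10 and -0.54 within pairs 2, 3 and 4. The liver and intestine cadherin of mammals, cdh17, was lower within each pair at a low level, 0.85 ± 0.22 CPM in BMS and 1.39 ± 0.61 CPM in vehicle (mean ± SD, n = 3 each).

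Of the 10 transglutaminases, 8 passed the filter and 7 had values above 0. The median log2 fold change was 0.20 without the block and 0.16 with it. It was -0.07 without vehicle replicate 4, in a fit with no block that kept BMS replicate 4. Unlike tgm5l, whose groups overlapped, tgm1 was higher in every BMS library than in any vehicle library. Transglutaminase 1 builds the cornified envelope in mammals. The level of tgm1 was 87.1, 73.7 and 64.8 CPM in BMS replicates 2, 3 and 4, against 59.15, 54.0 and 63.45 CPM in vehicle replicates 2, 3 and 4. The gap was narrow in pair 4 (0.03 on the log2(CPM + 0.5) scale, against 0.55 and 0.44 in pairs 2 and 3), and the log2 fold change was 0.35 ± 0.26 (edgeR adjusted p = 1). With a similar name, tgm1l1 was at 209, 44.2 and 35.97 CPM in BMS replicates 2, 3 and 4, against 52.8, 40.8 and 30.04 CPM in vehicle replicates 2, 3 and 4. Its log2 fold change without the block was 1.22 ± 0.61, or -0.03 when BMS replicate 2 alone was left out. Within pairs 2, 3 and 4 tgm1l1 was higher in BMS by 1.98, 0.11 and 0.26. The blocked fit without both libraries of number 2 gave 0.21. The gene tgm1l4 showed the reverse in pairs 3 and 4, where it was lower in BMS (-0.22 and -0.58), and it was higher by 0.56 in pair 2.

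**Figure D3:**
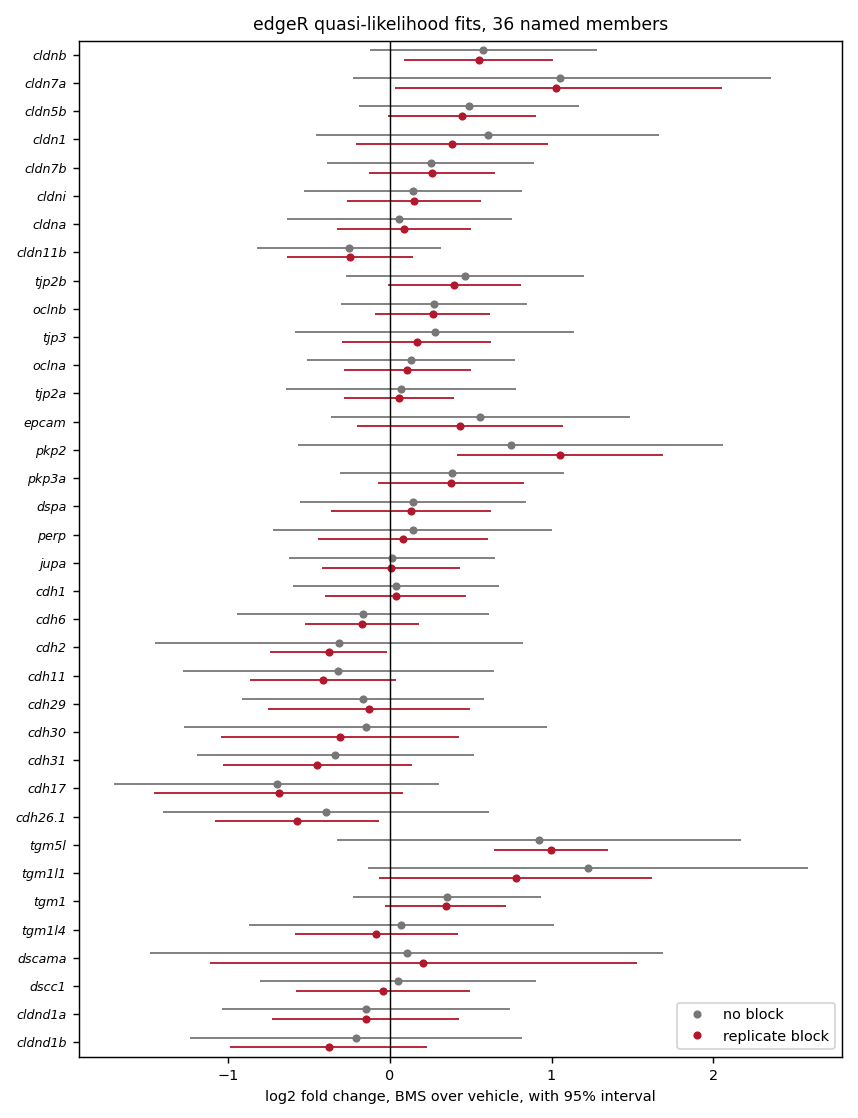
Log2 fold change, BMS over vehicle, with its 95% interval for the 36 named members, from edgeR's quasi-likelihood fit without the block (grey) and with the replicate number as a block (red). The intervals with the block exclude 0 for tgm5l (0.64 to 1.35) and pkp2 (0.41 to 1.69), among others, before any adjustment over the rows tested.

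The median difference of claudins was 0.32, 0.06 and 0.02 within pairs 2, 3 and 4, that of transglutaminases 0.56, 0.04 and 0.19, and that of tight junction scaffolds and occludins 0.38, 0.15 and -0.08. These 3 classes and epcam (1.26, 0.11 and -0.04) were highest in pair 2. Desmosome genes had 0.06, 0.36 and -0.06, and classical cadherins -0.10, -0.35 and -0.45. Over all 65 tested members, the median log2 fold change was 0.06, with 37 values above 0 (56.9%), against 51.5% of all rows. A difference of 1 sign in all 3 pairs was found in 17 members that were higher in BMS and in 11 that were lower. Over all rows it was found in 31.6%, with 14.1% higher and 17.5% lower. With RLE factors the split was 17 higher and 11 lower members, against 14.2% and 17.6% of all rows. With upper-quartile factors it was 18 and 12, against 14.7% and 17.7%. Total-count scaling shifts the median of all rows to -0.10. With it, 9 of the 65 members were higher and 14 lower, against 8.18% and 27.4% of all rows.

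Summed over the 88 members, the level was 16010, 15570 and 14030 CPM in BMS replicates 2, 3 and 4, against 12920, 12590 and 13700 CPM in vehicle replicates 2, 3 and 4. The groups did not overlap on this TMM scale. As a share of the total count, without TMM scaling, the sums were 1.25%, 1.61% and 1.53% in BMS and 1.23%, 1.34% and 1.53% in vehicle, in the same order, and overlapped. Desmosome genes made up 9112 CPM of the sum in BMS replicate 3, the highest of the 6 libraries, against 6852 to 7628 CPM in the others. Superficial epidermis markers, none of them a member, had values above 0 in 11 of 11 tested genes (median log2 fold change 0.38). Their sum was 31970, 15860 and 22170 CPM in BMS replicates 2, 3 and 4, against 18290, 14890 and 20220 CPM in vehicle replicates 2, 3 and 4. It was higher in BMS in each pair, by far the most in pair 2, the pair in which epcam, cldn1, tgm1l1 and tjp2b also differed most. Other members differed most in pair 2 too but were lower in BMS, among them cdh26.1 (-1.10), cdh31 (-1.07), cldnd1b (-1.19) and pkp1a (-0.85). Of the 65 tested members, 39, 39 and 28 were higher in BMS in pairs 2, 3 and 4. Of all 18541 rows tested, 9273, 9079 and 8078 were higher, in the same order. Basal epidermis markers summed to 28250, 20290 and 13920 CPM in BMS and to 23560, 21020 and 16180 CPM in vehicle. Most of this sum was the keratin gene krt5, at 25160, 17170 and 12280 CPM in BMS and 20560, 18050 and 14390 CPM in vehicle. Of the 9 tested basal markers, log2 fold changes were above 0 in 6 and below 0 in 3 (median 0.04). The part of either list in the members' values was not tested. None of the matched markers was at 0 in all libraries.

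**Figure D4:**
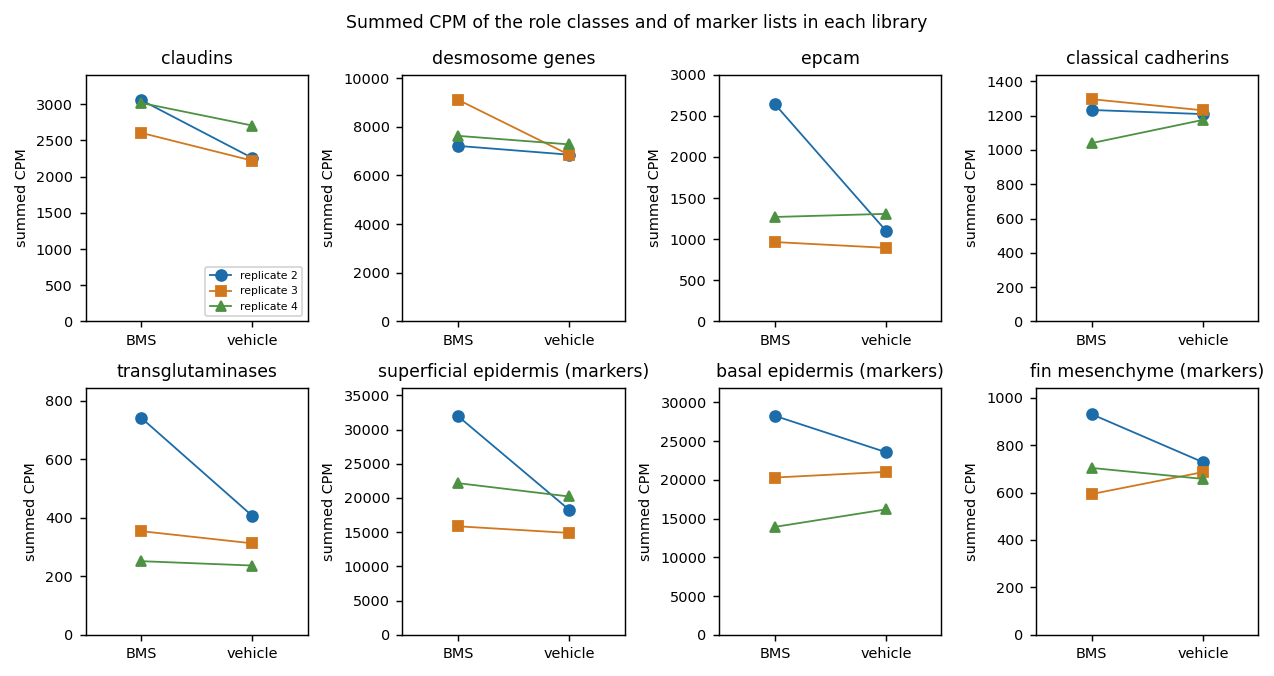
Summed CPM of 5 role classes and of 3 marker lists in each library, on linear axes from 0, with BMS left of vehicle and lines between libraries of the same number. BMS replicate 2 is highest for claudins, epcam and transglutaminases. It is also highest for superficial epidermis (31970 CPM), basal epidermis (28250 CPM) and fin mesenchyme markers (930 CPM). The basal epidermis sum is mostly 1 gene, krt5 (25160 CPM in BMS replicate 2). BMS replicate 3 is highest for desmosome genes (9112 CPM) and classical cadherins (1296 CPM).

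The 4 tested genes that share only the spelling or a claudin domain were not called either. The claudin-domain genes cldnd1a and cldnd1b were at 2.30 ± 0.748 CPM in BMS and 2.53 ± 0.749 CPM in vehicle, and at 17.2 ± 9.99 CPM in BMS and 20.01 ± 4.82 CPM in vehicle (mean ± SD, n = 3 each). The cohesion gene dscc1, which acts in DNA replication, was at 8.29 ± 3.71 CPM in BMS and 7.98 ± 1.30 CPM in vehicle, and dscama, a neural adhesion gene, at 0.398 ± 0.235 CPM in BMS and 0.365 ± 0.28 CPM in vehicle.

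Partner genes of the junctions, listed by hand and not members, were read from the same fit. The edgeR quasi-likelihood test called none of them, with or without the block. Of 16 matched catenin and adherens junction genes, 13 were tested, with 2 values above 0 and 11 below (median log2 fold change -0.13). The beta-catenin gene ctnnb1, whose protein links cadherins to the actin cytoskeleton, was at 796 ± 342 CPM in BMS and 874 ± 272 CPM in vehicle (mean ± SD, n = 3 each). The vinculin gene vcla, whose protein binds catenins under tension, was lower in BMS within each pair, with a log2 fold change of -0.28 ± 0.38, or -0.69 to -0.02 with 1 library left out. Of 26 tight junction partners, 24 were tested, with 13 values above 0 and 11 below (median 0.04). The junctional adhesion molecule gene f11r.1 was at 228 ± 18.5 CPM in BMS and 198 ± 20.5 CPM in vehicle, and the motin gene amotl2b at 79.7 ± 31.05 CPM in BMS and 49.4 ± 17.7 CPM in vehicle.

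Of 12 desmosome partners and envelope genes, all tested, 11 values were above 0 and 1 was below (median 0.28). This list shares krt4, evpla, ppl and anxa1c with the superficial epidermis markers. Periplakin's gene ppl, which ties keratins to the desmosome in mammals, was at 1138 ± 169 CPM in BMS and 930.3 ± 231 CPM in vehicle. The last list held 24 regulator genes of the epithelial or mesenchymal state, most of them for transcription factors. All were tested, with 8 values above 0 and 16 below (median -0.12). DESeq2 with the block called 1 of these, klf5l, a gene of the Krüppel-like factor family. It was at 177, 109 and 53.8 CPM in BMS replicates 2, 3 and 4, against 143, 50.2 and 23.8 CPM in vehicle replicates 2, 3 and 4. The BMS library was higher within each number, and the log2 fold change was 0.86 ± 0.23 (DESeq2 with the block, adjusted p = 0.0362, against 1 by edgeR without the block). It was not called by DESeq2 with the block without both libraries of number 3 or of number 4. The grainyhead-like factor gene grhl3, required for skin barrier formation in mice, was higher within each pair as well, at 195 ± 92.8 CPM in BMS and 127 ± 31.2 CPM in vehicle, and was not called. Of the 24, 3 were higher and 6 were lower in BMS in all 3 pairs (14.1% and 17.5% of all rows). The 6 were tfap2a, tfap2c, snai1b, ovol1b, zeb1a and zeb1b.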

How the data were processed

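RNA was measured in 6 libraries, 3 BMS and 3 vehicle, with total counts of 16978747 to 22659275. What the authors deposited are whole-number counts for each gene row, and normalized values, a signal on a CPM scale, for 11549 rows (46 members). Per the submitters' processing notes the build was GRCz11. They name edgeR 4.3.2, HTSeq 0.6.1, Bowtie2 2.33 and TopHat2 2.1.1 without saying what each did. Annotation, strand setting and the treatment of reads shared by near-identical genes are not stated, so counts of paralogs such as the tgm1-like genes are uncertain.

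The deposited counts were tested with edgeR 4.0.16 (quasi-likelihood F test, two-sided, robust, TMM scaling, filterByExpr by group) under R 4.3.3, adjusted over 18541 rows with a threshold of 0.05. Other tests used limma 3.58.1 and DESeq2 1.42.0, and the authors' signal values were tested with limma on log2(value + 0.5). SEs of edgeR values were taken from the F statistic. Pair differences are log2(CPM + 0.5), which understates changes of low genes. Where several rows carry 1 name, that of highest mean count was kept (1 member, cdh23). The labels describe pools of fins, not single fish, so a p-value reflects how pools vary.

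The correlation across genes of deviations from the group mean was 0.63, 0.62 and 0.68 for BMS and vehicle libraries of the numbers 2, 3 and 4, each above the limit of 0.1, and -0.55 to -0.19 otherwise. The numbers were therefore taken as pairs, a reading from the data and not from the labels. Libraries of a group differed by more than counting noise, with a chi-square of 26.7 to 104.5 per degree of freedom.

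Named members are the 4 of highest mean CPM in each role class, the 10 of smallest p with and without the block, those called in any fit and those of mean CPM of at least 5 whose groups do not overlap. Other members named are stated with the count they belong to. Members, roles and lists were chosen with earlier results of these data known. Listed symbols were matched by name, with synonyms from the GRCz12tu RefSeq table, used for names and gene order only. No sequences were used here.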

Additional observations from a re-analysis of the deposited data

How the results depend on the processing

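The main test, edgeR's quasi-likelihood test without a block, called 0 genes. DESeq2 called 1 and the likelihood ratio test 1. With the replicate number as a block, counts were 72 by DESeq2 (10 members had no adjusted p) and 110 by the likelihood ratio test. The blocked quasi-likelihood fit called 9 genes without number 2, 392 without number 3 and 12 without number 4, and blocked DESeq2 called 97, 49 and 5 in that order. Fits that leave out both libraries of a number with DESeq2, and those that rescale it, were chosen after seeing the data. Of the members (main count 0), DESeq2 with the block called 2, again 2 with TMM scaling or without number 2, 1 with total-count scaling or without number 3, and 0 without number 4. The blocked likelihood ratio test called 1, and the quasi-likelihood test with the block without number 3 called 4 (pkp2, cdh26.1, tgm5l and tgm1l1). Of the partner genes (main count 0), blocked DESeq2 and likelihood ratio tests called 1 each, blocked DESeq2 2 without number 2, and the quasi-likelihood test with the block 4 without number 3. The cause of these differences was not tested. Of the Hedgehog genes, the block added gli1 to the DESeq2 calls (adjusted p = 0.0245), and hhip was called by DESeq2 either way. Among members the block added tgm5l and pkp2 to the DESeq2 calls and tgm5l to those of the likelihood ratio test. Among partner genes it added klf5l to both. With all 6 libraries the block changed no other call among members and partner genes.

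Total-count scaling gave a median log2 fold change of -0.045 over the tested members and -0.17 over the 4 tested other name matches. Leaving out 1 library at a time gave medians of -0.62 to 0.027 for classical cadherins, 0.068 to 0.32 for claudins, -0.75 to -0.057 for other cadherins, -0.21 to 0.061 for other name matches and -0.073 to 0.45 for transglutaminases. Single members changed sign under total-count scaling (oclna -0.0078, dscc1 -0.091, tjp2a -0.045, cldna -0.043, jupa -0.10, tgm1l4 -0.12 and cdh1 -0.068), with the block (dscc1 -0.039 and tgm1l4 -0.082) and in DESeq2 with the block (dscc1 -0.051, jupa -0.0002 and tgm1l4 -0.089). With 1 library left out, log2 fold changes that changed sign ranged over -0.11 to 0.60 (tjp3), -0.053 to 0.28 (oclna), -0.46 to 0.077 (cdh6), -0.78 to 0.061 (cdh2), -0.20 to 0.37 (dscc1), -0.80 to 0.011 (cdh11), -0.025 to 0.26 (dspa), -0.27 to 0.89 (dscama), -0.20 to 0.92 (cldn1), -0.60 to 0.19 (cldnd1b), -0.12 to 0.28 (tjp2a), -0.13 to 0.44 (perp), -0.067 to 0.32 (cldna), -0.078 to 0.10 (jupa), -0.41 to 0.084 (cdh29), -0.51 to 0.40 (tgm1l4), -0.035 to 1.62 (tgm1l1), -0.039 to 0.093 (cdh1), -0.38 to 0.10 (cldnd1a) and -0.78 to 0.23 (cdh30). None of these members was called by the main test. The fits with 1 library left out have no block and keep the other library of that number. Their sign changes therefore cannot tell the treatment from the difference between replicate numbers. Depth limits a member with no read to at most 0.119 to 0.227 CPM per library (3 counts). The reason for the few calls was not tested.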

Other observations

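Of the 23 members that did not pass the filter, cdh15 and tgm2a had no read in any library, which allows up to 0.119 to 0.227 CPM (3 counts). The other 21 had a mean of at most 0.471 CPM. Of these 23, the groups did not overlap for cldnc and cldn17 (higher in BMS) and cdh16 (lower in BMS), a set chosen after its values were seen. The share of all rows below the filter without overlap was not computed, so there is no base to set this against. The gene cldnc had 8, 9 and 13 reads in BMS replicates 2, 3 and 4, against 3, 1 and 2 reads in vehicle replicates 2, 3 and 4. Every BMS library was above every vehicle library, at 0.61, 0.43 and 0.53 CPM against 0.15, 0.04 and 0.08 CPM. Without the filter its adjusted p was 1 by edgeR. For cldn17 there were 3, 3 and 3 reads in BMS replicates 2, 3 and 4, against 1, 1 and 2 in vehicle replicates 2, 3 and 4, and for cdh16 0, 1 and 0 reads in BMS, against 2, 6 and 2 in vehicle. These counts lie near the floor of 3.

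In the order of protein-coding genes of the GRCz12tu RefSeq table, 17 members stand next to another member, in 6 runs. One run is cldnh, cldnc and cldnb. The libraries of BMS and vehicle did not overlap for cldnb and for cldnc, which did not pass the filter. They overlapped for cldnh (33.0 ± 6.32 CPM in BMS and 30.0 ± 6.19 CPM in vehicle, mean ± SD, n = 3 each). Another run is cldnj, cldne, cldnf and cldna, whose log2 fold changes lay between -0.14 and 0.13. A run of cadherins is cdh6, cdh10a, cdh12a and cdh18a. Of these cdh6 and cdh18a were tested, and both were lower in BMS within each pair.

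With the block, the 95% interval lay within 1 log2 unit of 0 for 49 of 65 tested members (75.4%), against 76.3% of all rows.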
